A study of Mus musculus with 6 samples.

Results

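The cells described here are outlined cells of mouse bone marrow in 2 Xenium sections, taken as megakaryocytes by their raw counts of Pf4, Ppbp and Mmrn1, a label that did not hold for all of them, as given below. A cell was a member when these genes together gave 5 or more counts in the P8 section or 3 or more counts in the 89-week section. The rule found 1888 members among 52594 segmented cells at P8, which is 3.59% (95% exact binomial interval 3.43 to 3.75), and 5646 members among 143810 cells at 89 weeks, which is 3.93% (3.83 to 4.03). Intervals throughout cover counting error only.

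Xenium is an in situ assay that decodes single RNA molecules in a tissue section with a fixed panel of gene probes and assigns them to cells outlined from stained nuclei. The study mapped hematopoietic organs of wild-type C57BL/6 mice with 6 such sections, 1 per condition. The P8 section came from a formalin-fixed femur taken on postnatal day 8, before decalcification is needed, and therefore held bone, cartilage and muscle as well as marrow. The 89-week section held marrow from the leg bones of an aged mouse that was fixed, cryosectioned and freed from bone before it was embedded in paraffin, and neither animal was treated. With 1 section per age there is no biological replicate, and age cannot be told apart from panel, run and outline method. The P8 panel held 477 genes and its outlines were grown out from the nucleus, while the 89-week panel held 5050 genes and its outlines used stains of the cell border and interior. The sections held 6446659 and 13053261 gene transcripts in cells, with a median of 109 transcripts per cell at P8 and 60 at 89 weeks. Each comparison therefore sets members against all other cells of the same section, and no p-value is given because cells of 1 section are not replicates.

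Megakaryocytes are the large bone marrow cells that shed platelets into the sinusoids. They enlarge by repeated rounds of DNA replication without division, which gives a single lobed polyploid nucleus, and they fill their cytoplasm with granules of clotting factors, chemokines and growth factors. Transcription factors such as Gata1, Fli1 and Nfe2 drive the platelet gene program. Pf4 and Ppbp encode the platelet chemokines of the alpha granule, and Mmrn1 encodes multimerin 1, a carrier of factor V that is also made by endothelial cells.

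The promoters of the rule genes, and that of Itga2b, the platelet integrin subunit that was among the genes with the largest fold at 89 weeks, are shown because these genes define or lead the population. The sequences are the 250 bases before the gene's first base in RefSeq, build GRCm38.p6, written 5′ to 3′ on the gene's own strand. Capitals mark the letters AGATAA or TGATAA, searched as a GATA motif, and AGGAAG or CGGAAG, searched as an ETS motif, on both strands.
Pf4, chr5:90772185-90772434, plus strand: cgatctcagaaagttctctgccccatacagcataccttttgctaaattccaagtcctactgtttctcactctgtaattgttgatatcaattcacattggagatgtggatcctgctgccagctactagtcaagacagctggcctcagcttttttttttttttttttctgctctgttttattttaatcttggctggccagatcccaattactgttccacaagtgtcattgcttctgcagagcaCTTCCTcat
Ppbp, chr5:90768268-90768517, plus strand: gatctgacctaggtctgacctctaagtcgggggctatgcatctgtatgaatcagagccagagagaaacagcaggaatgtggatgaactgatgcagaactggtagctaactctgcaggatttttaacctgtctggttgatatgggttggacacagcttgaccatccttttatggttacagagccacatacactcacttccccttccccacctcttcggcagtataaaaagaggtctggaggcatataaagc
Mmrn1, chr6:60944067-60944316, plus strand: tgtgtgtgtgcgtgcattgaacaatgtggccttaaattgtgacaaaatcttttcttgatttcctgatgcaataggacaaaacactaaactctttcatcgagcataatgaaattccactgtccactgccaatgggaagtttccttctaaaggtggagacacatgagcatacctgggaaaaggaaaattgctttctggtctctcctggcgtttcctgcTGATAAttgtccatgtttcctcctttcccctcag
Itga2b, chr11:102469884-102470133, minus strand: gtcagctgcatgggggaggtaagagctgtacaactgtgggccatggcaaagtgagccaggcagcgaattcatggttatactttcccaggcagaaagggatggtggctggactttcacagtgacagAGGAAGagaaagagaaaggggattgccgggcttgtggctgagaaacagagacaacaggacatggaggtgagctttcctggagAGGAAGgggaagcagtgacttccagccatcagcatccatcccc
The Pf4 promoter held 1 ETS match, which begins 9 bases before the gene, and the Itga2b promoter held 2, at 125 and 43 bases before it. The Mmrn1 promoter held 1 GATA match, 34 bases before the gene, and the Ppbp promoter held neither motif in this window. Of all 32851 promoters of the same length in the table, 16.6% held the GATA letters and 39.2% the ETS letters. Of the 44 megakaryocyte genes found higher in members at 89 weeks, 30 had a promoter in the table, of which 4 (13.3%) held the GATA letters and 15 (50%) the ETS letters. A match describes these letters only and is not evidence of a bound site.

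In both sections members formed patches scattered through the marrow (plot of member positions). At P8 they lay in the marrow cavities and were rare in the cartilage ends of the bone, whereas at 89 weeks they were spread over every piece of marrow on the slide.

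**Figure D1:**
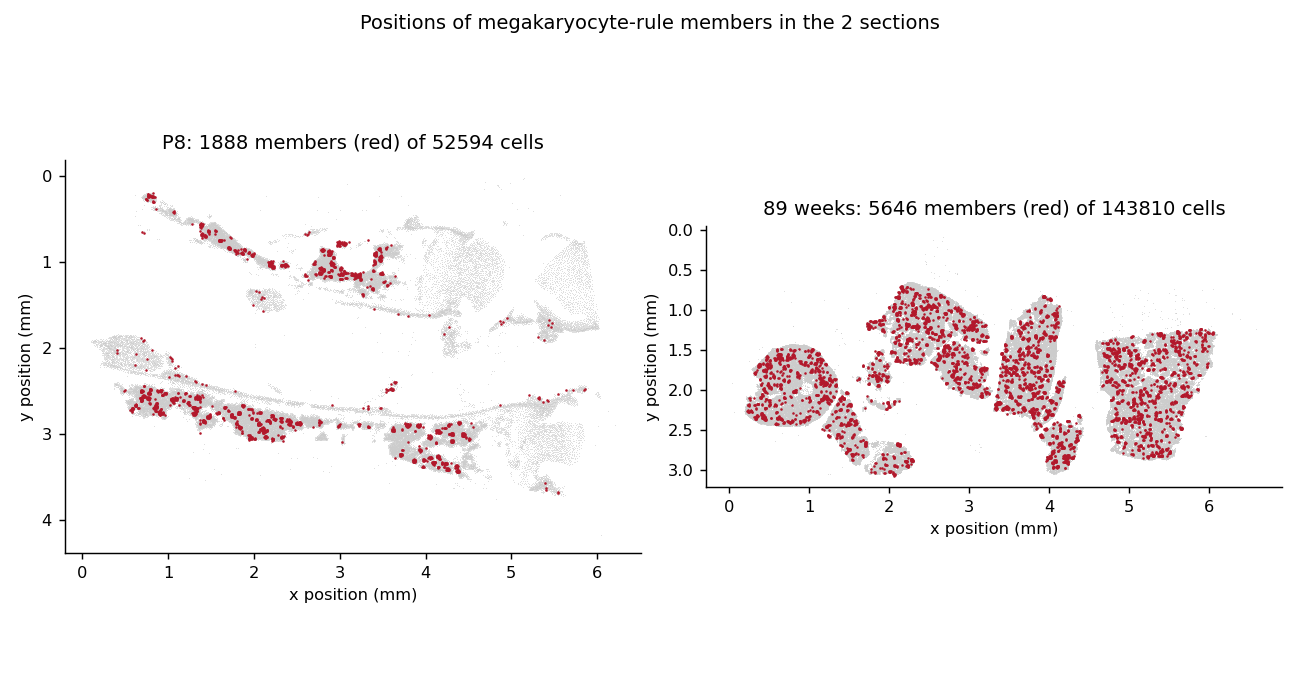
Position of each segmented cell in the P8 section (left) and the 89-week section (right), with x and y in millimetres. Grey points are other cells and red points are the 1888 members at P8 and the 5646 members at 89 weeks.

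The rule genes themselves are given as a description, because they chose the cells. A member held a median of 11 rule counts at P8 (quartiles 7 and 20, highest 214) and of 8 at 89 weeks (quartiles 4 and 18, highest 300). At P8 the mean count per member was 7.21 ± 7.84 (SD over cells) for Pf4, 8.02 ± 10.7 for Ppbp and 2.62 ± 4.49 for Mmrn1. At 89 weeks it was 1.64 ± 2.64 for Pf4, 15.8 ± 24.6 for Ppbp and 0.257 ± 0.670 for Mmrn1. Members at P8 were thus found through both chemokine genes about equally, while those at 89 weeks were found mostly through Ppbp. Accordingly, 1163 members at P8 (61.6%) held all 3 genes, whereas at 89 weeks 2376 members (42.1%) held Ppbp alone and 761 (13.5%) held all 3. At the edge of the rule, 253 cells at P8 held exactly 5 counts and 405 held 4, and at 89 weeks 943 cells held 3 counts and 1730 held 2.

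To check the label with a gene that had no part in the choice, cells were chosen by any pair of the rule genes and the level of the gene left out was read. At P8, Pf4 was detected in 95.8% of the 1266 cells chosen by Ppbp and Mmrn1, against 11.1% of the other cells. Ppbp was detected in 83.3% of 1309 cells chosen without it, against 7.05%, and Mmrn1 in 65.7% of 1776 cells, against 4.50%. All 3 genes were thus far more frequent in cells picked by the other two. At 89 weeks, Ppbp was detected in 90.9% of 1397 cells chosen by Pf4 and Mmrn1, against 6.94% of the other cells. Pf4 was detected in 49.9% of 5175 cells chosen without it, against 1.34%, and Mmrn1 in 17.2% of 5602, against 0.299%. The last 2 shares left many cells without a count, at a mean level of 1.54 Pf4 counts and 0.251 Mmrn1 counts per chosen cell.

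Nuclear size was the second trait compared, since a polyploid nucleus is the classical mark of a megakaryocyte. The median nucleus area was 26.6 µm² in members and 21.9 µm² in other cells at P8, and 22.0 and 16.9 µm² at 89 weeks. The median ratio was therefore 1.21 at P8 and 1.30 at 89 weeks. Members also held more transcripts, with a median of 140 transcripts of other genes against 107 at P8 and 136 against 58 at 89 weeks. Against only those other cells that reached the 25th percentile of members in transcripts (101 at P8 and 77 at 89 weeks), the median nucleus ratio was 0.99 at P8 and 0.998 at 89 weeks. All members were kept here, also those below the cut, so members and other cells were not matched in depth. In this comparison the median member nucleus was no larger than that of other cells rich in transcripts, and the difference lay in the largest nuclei.

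The share of members grew steeply with nucleus area at 89 weeks. Of nuclei under 20 µm², 2.63% belonged to members, and this share was 4.98% from 20 to 40 µm² and 18.9% from 40 to 60 µm². It reached 67.7% (174 of 257, 61.6 to 73.4) from 60 to 80 µm², 91.5% (65 of 71, 82.5 to 96.8) from 80 to 100 µm² and 97.4% (38 of 39, 86.5 to 99.9) at 100 µm² and above. Nuclei of at least 60 µm² were found in 4.91% of members, against 0.166% of the other cells rich in transcripts. Nearly every very large nucleus of the aged marrow thus carried the platelet genes, and the 7 cells with nuclei of 80 µm² or more that were not members held 0 rule counts. The rule did not use nuclear area, but it is a threshold on raw counts, and transcripts of other genes also mounted with area (median 74 in the bottom and 292 in the top quartile of member nuclei at 89 weeks), so that the relation is not free of depth.

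At P8 the same relation was weaker. Members made up 2.50% of nuclei under 20 µm², 13.0% (59 of 455, 10.02 to 16.4) from 60 to 80 µm² and 31.4% (16 of 51, 19.1 to 45.9) at 100 µm² and above. The 498 other cells with nuclei of at least 60 µm² had 88319 counts per 1000000 gene transcripts (CPM, with the rule genes left out of the total) on the cartilage list and 121712 on the stromal and bone list, against 1641 and 44678 CPM in the 89 members of that size. These non-members also had more erythroid (204437 against 183535 CPM) and neutrophil transcripts (41497 against 31315 CPM), so that they were a mixture of skeletal and marrow signal. At 89 weeks the panel held 2 of the 5 cartilage list genes, and neither class had counts of them. The 90 non-members with nuclei of 60 µm² or more in that section had 57725 CPM on the neutrophil list, against 1523 CPM in the 277 members of that size. Their level on the platelet receptor list was 1711 CPM, against 63314 CPM in those members.

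**Figure D2:**
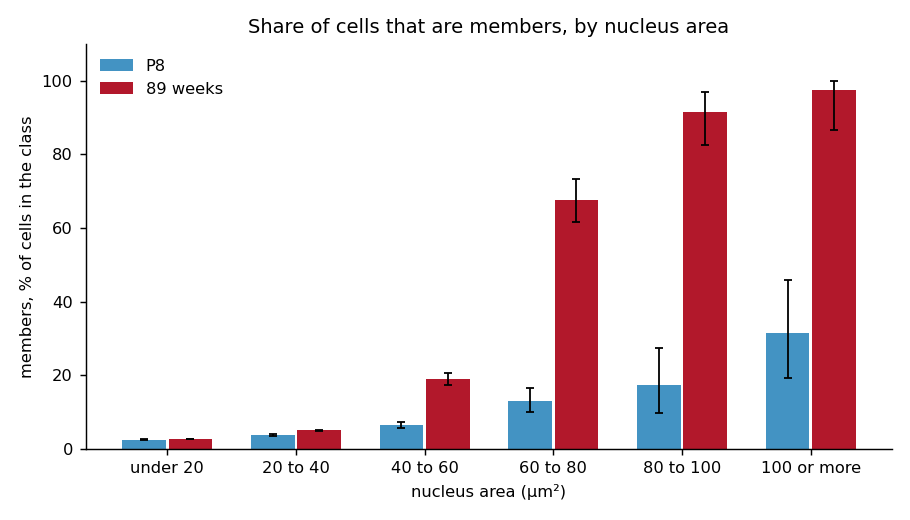
Share of cells that were members (%) in each class of nucleus area (µm²), P8 in blue and 89 weeks in red, with 95% exact binomial intervals. The share rises from 2.50% to 31.4% at P8 and from 2.63% to 97.4% at 89 weeks.

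Cell outlines were also larger in members by the median, by more at 89 weeks than at P8. The median cell area was 47.9 µm² in members and 27.9 µm² in other cells at 89 weeks, a ratio of 1.72 that was still 1.23 against other cells rich in transcripts. At P8 the medians were 55.0 and 50.5 µm², a ratio of 1.09 that became 0.916 against other cells rich in transcripts, and the mean area was lower in members (80.6 µm²) than in other cells (108 µm²). The outline at P8 is a fixed growth around the nucleus, so its area is in part set by the spacing of nuclei. Outlines with at least a pair of nuclei made up 1.52% of members (86 cells) and 1.28% of other cells at 89 weeks.

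Gene by gene, members were then compared with all other cells of their section as a ratio of CPM, with genes entering where an expected count of 10 or more in members was available. A gene was called past the fold at 2 or more, or at 0.5 or less. At P8, 366 genes entered, of which 33 were higher in members (9.02%) and 85 lower (23.2%). At 89 weeks, 3338 genes entered, of which 302 were higher (9.05%) and 504 lower (15.1%). Against these shares, the 4 megakaryocyte lists (receptors and adhesion, granule and secreted, signaling and cytoskeleton, transcription factors) gave 11 of 15 genes higher and 0 lower at P8, with a median fold of 5.71, and 44 of 55 higher and 1 lower at 89 weeks, with a median fold of 7.17. The median fold of all genes entered was 0.952 at P8 and 0.834 at 89 weeks. The lists were drawn up from textbook knowledge with results of these data known.

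**Figure D3:**
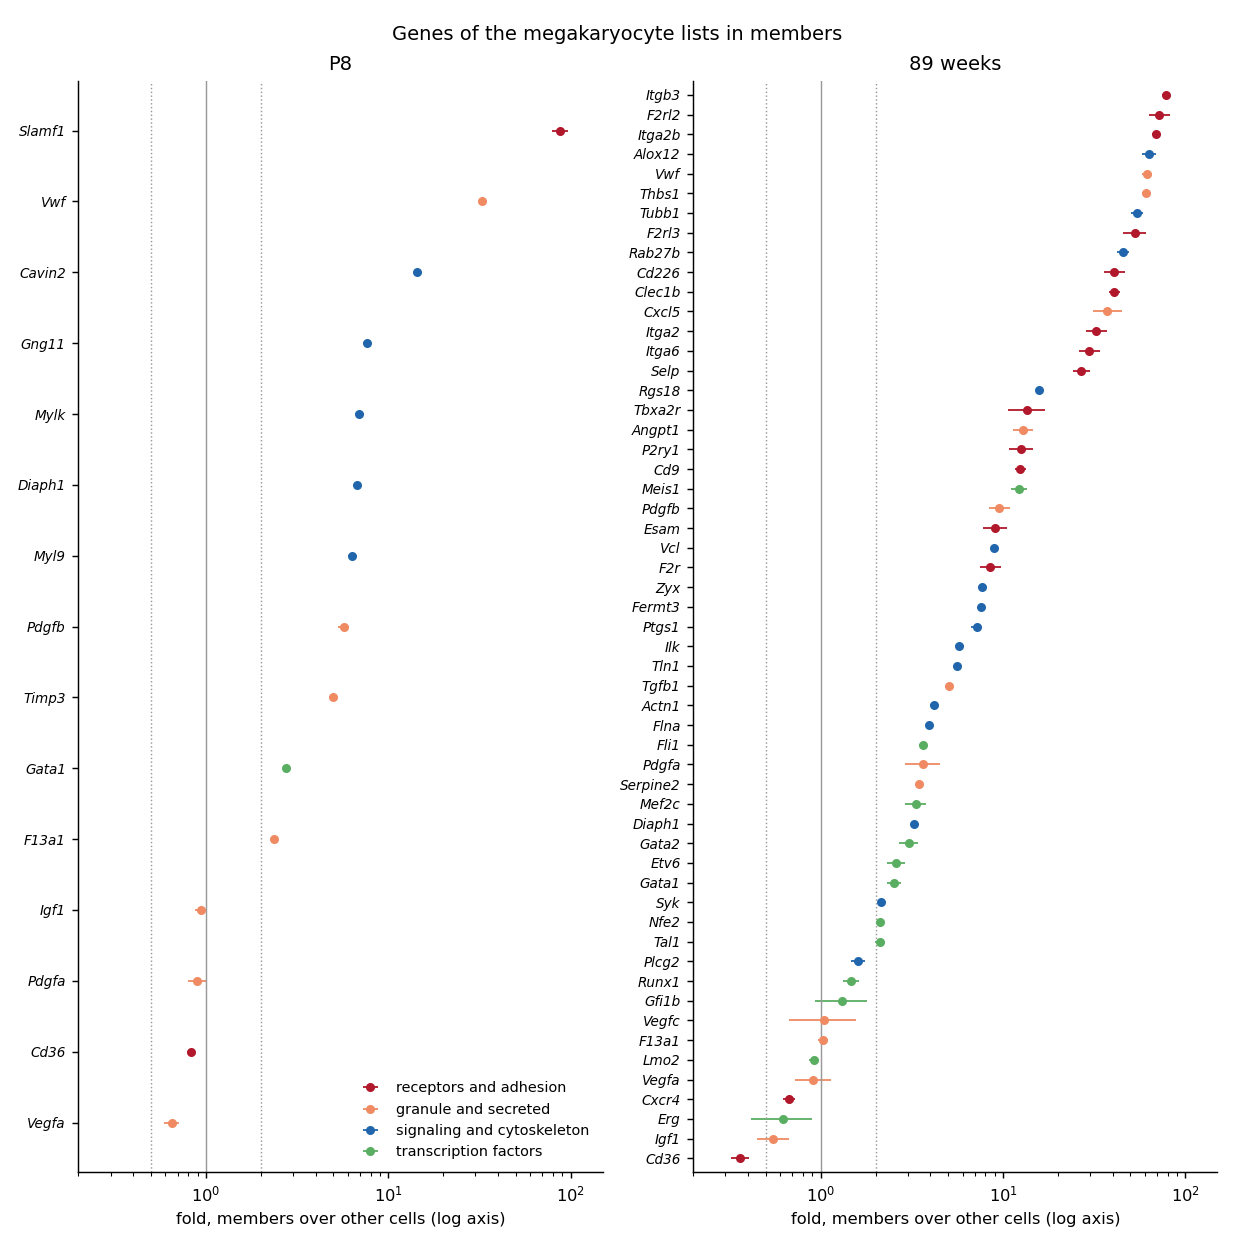
Fold of CPM in members over other cells (log axis) for each megakaryocyte list gene that entered at P8 (left, 15 genes) and 89 weeks (right, 55 genes), with 95% exact conditional binomial intervals and colors for the 4 lists. Dotted lines mark a fold of 0.5 and of 2, and 11 and 44 genes lie above the upper line.

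Among receptors and adhesion molecules at 89 weeks, 14 of 16 genes were higher in members. Itgb3 and Itga2b, the subunits of the platelet fibrinogen receptor, reached folds of 78.3 (74.1 to 82.8) and 68.9 (65.8 to 72.1). Itga2b gave a mean of 2.31 counts per member and was detected in 56.7% of members against 1.25% of other cells, and Itgb3 in 52.6% against 0.987%. Both subunits were therefore near absent from the rest of the marrow. The thrombin receptor genes F2rl2 (72.1), F2rl3 (52.7) and F2r (8.52) were all higher, as were the thromboxane receptor Tbxa2r (13.5) and the ADP receptor P2ry1 (12.5). Of the adhesion genes, Cd226 (40.9), the podoplanin receptor Clec1b (40.8), the collagen receptor subunit Itga2 (32.6), the laminin receptor subunit Itga6 (29.8), Selp (26.9), which encodes P-selectin, Cd9 (12.4) and Esam (9.06) were higher. The chemokine receptor Cxcr4 had a fold of 0.674, and the scavenger receptor Cd36 was the gene of the list that was lower, at 0.362 (0.321 to 0.406). At P8, the panel held 2 genes of this list. Slamf1, which encodes the surface receptor CD150 of stem cells and megakaryocytes, had the largest fold of the section, 87.1 (78.9 to 96.3), with 37.0% of members against 0.891% of other cells, and Cd36 stood at 0.827.

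Granule and secreted genes were led by Vwf, the von Willebrand factor, in both sections. At P8 it had a mean of 4.17 counts per member and a fold of 32.6 (31.5 to 33.8), and was detected in 76.5% of members against 7.69% of other cells. At 89 weeks its mean was 1.36 counts per member and its fold 61.3 (57.9 to 64.8), with 46.6% against 0.951%. Vwf was thus the most widely detected platelet gene outside the rule at P8. At 89 weeks, 8 of 12 genes of the list were higher. Thbs1, thrombospondin 1, had a fold of 60.8 and the chemokine Cxcl5 of 37.2 (31.0 to 44.7), followed by Angpt1 (12.8), the growth factors Pdgfb (9.56), Tgfb1 (5.07) and Pdgfa (3.62), and Serpine2 (3.48). F13a1, the A subunit of clotting factor XIII, had a fold of 1.03, Vegfa of 0.911 and Igf1 of 0.549. At P8, Pdgfb (5.71), Timp3 (4.95) and F13a1 (2.37) were higher beside Vwf, and Igf1 (0.944), Pdgfa (0.896) and Vegfa (0.648) were not past the fold.

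Signaling and cytoskeleton genes formed the most uniform list. At 89 weeks, 14 of 15 were higher, with the lipoxygenase Alox12 at 63.2, Tubb1, the beta-tubulin of the platelet marginal band, at 54.3 (50.2 to 58.8), Rab27b, a GTPase of granule release, at 45.5 and Rgs18 at 15.8. The integrin adaptors and actin binders Vcl (8.91), Zyx (7.71), Fermt3 (7.62), Ilk (5.77), Tln1 (5.56), Actn1 (4.17), Flna (3.90) and Diaph1 (3.25) were higher by smaller folds. Ptgs1, the cyclooxygenase of platelets, stood at 7.17 and the kinase Syk at 2.15, and Plcg2 (1.6) was not past the fold. At P8, all 5 genes of the list on the panel were higher, with Cavin2 at 14.3, the G protein subunit Gng11 at 7.65, the myosin light chain kinase Mylk at 6.93, Diaph1 at 6.70 and the myosin light chain Myl9 at 6.36. All genes of this list that entered, except Plcg2, were thus higher in members, on a list drawn up with results of these data known.

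Transcription factors differed by less. At 89 weeks, 8 of 12 were higher, with Meis1 at 12.2 (11.1 to 13.5), Fli1 at 3.64, Mef2c at 3.31, Gata2 at 3.03, Etv6 at 2.60, Gata1 at 2.52, Nfe2 at 2.13 and Tal1 at 2.11. Runx1 (1.46), Gfi1b (1.31), Lmo2 (0.924) and Erg (0.623) were not past the fold. Gata1, which the erythroid lineage also uses, was 2.75-fold higher at P8 (2.65 to 2.85) and was detected in 65.4% of members against 27.9% of other cells. The factors thus gave smaller folds than most of the receptor genes did.

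Outside the lists, the genes with the largest folds at 89 weeks included transporters and channels. Kcnj5, a potassium channel subunit, led all genes at 79.4 (67.4 to 94.2), and the serotonin transporter Slc6a4, through which platelets take up serotonin, stood at 70.3 (60.5 to 82.0). Ly6g6d (78.7, 52.3 to 123) and the dopamine transporter Slc6a3 (73.1, 47.3 to 118) rested on 184 and 152 counts in members. At P8 the genes outside the lists were Ctla2a (19.3), detected in 59.0% of members against 6.07% of other cells, Lyve1 (6.84) and Ly6g6c (5.85). The genes with the smallest folds at P8 were Acan (0.0170), Comp (0.0187), Col2a1 (0.0192) and Ucma (0.0248), which are cartilage genes, and Tmem59l (0.0329, from 1 count in members). At 89 weeks they were Bglap2 (0.0625), Mmp13 (0.0741) and Dmp1 (0.0667, from 1 count), which are bone-forming cell genes, with Mag (0.0566) and Kcnt2 (0.0791), each from 1 count. The lowest folds thus named the tissues that surrounded the marrow more than the blood lineages within it. Against only the other cells within 50 µm of a member, an alternative chosen after seeing the data, Col2a1 was at 0.618 and Ucma at 0.765. Acan (at most 0.273) and Comp (at most 0.466) stayed below 0.5 under every alternative.

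Because members held more transcripts, detection was also compared at 1 depth. With every cell thinned to 50 transcripts, a member showed a median of 30.7 genes at P8 against 27.5 in other cells (54 against 41 without thinning), and 45.8 against 43.3 at 89 weeks (110 against 47). The thinning left out 59 members and 7583 other cells at P8, and 701 members and 60812 other cells at 89 weeks. At this depth Itga2b was expected in 36.2% of members and 0.829% of other cells at 89 weeks, and Vwf in 56.1% and 3.76% at P8. The separation of these genes was thus also seen at equal depth, while the gap in genes per cell was much smaller than without thinning.

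Markers of other cell types were read in the same way, because an outline can take in transcripts of a neighbor. At P8 the erythroid list had 261977 CPM in members and 275454 in other cells, with 0 of 12 genes past the fold, and 96.3% of members held 3 or more erythroid counts, against 74.3% of other cells. The neutrophil list had 0 of 11 genes past the fold and a summed fold of 1.13. The C1q macrophage list had 2 of 15 genes higher, with a median fold of 1.53. Members at P8 thus had about the same erythroid and neutrophil shares as the other cells of the section, which included cartilage, bone and muscle. Non-members within 30 µm of a member had 374484 CPM on the erythroid list and 48653 on the neutrophil list, against 261977 and 43005 in members. How many of the erythroid and neutrophil transcripts of members came from adjoining cells was not tested. At 89 weeks, 9 of 11 erythroid genes were lower with a median fold of 0.369, among them Slc4a1 (0.277), the red cell anion exchanger, and 6 of 8 neutrophil genes were lower with a median of 0.330. The C1q macrophage list had 5 of 13 genes lower, with a median of 0.570. B and plasma genes (6 of 6 lower, median 0.397), osteoclast genes (4 of 4, 0.347) and mast, basophil and eosinophil genes (3 of 3, 0.343) followed. None of these 6 lists had a gene higher in members at 89 weeks. Genes of the tissues around the marrow were lower at P8, with 5 of 5 cartilage genes (median 0.0192), 6 of 6 skeletal muscle genes (0.184) and 6 of 7 stromal and bone genes (0.427), and 3 of 7 stromal and bone genes were lower at 89 weeks (0.538). On the lymphatic endothelial list, Lyve1 was the 1 gene of 2 past the fold in each section (6.84 at P8 and 12.1 at 89 weeks). For the endothelial list, 3 of 13 genes were higher at 89 weeks, namely Lyve1 (12.1), Tie1 (4.99) and Pecam1 (3.09), and 1 was lower. At P8, 2 of 10 were higher, namely Lyve1 (6.84) and Tie1 (2.42), and 2 were lower. Kdr stood at 1.87 at 89 weeks and 1.39 at P8, and Cdh5 at 0.904 at 89 weeks.

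No cell cycle gene was 2-fold higher in members at either age. At 89 weeks, 9 of 22 were lower and 0 higher, with a median fold of 0.519, among them Mki67 (0.423), Top2a (0.489) and Birc5 (0.483). The cyclin Ccnd3 stood at 1.23 and the kinase Cdk6 at 0.774. At P8, the 4 genes on the panel, Cenpf, Ube2c, Stmn1 and Diaph3, lay between 1.04 and 1.22.

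The 233 genes on both panels allowed the ages to be set side by side, with no test because panel and run differ. Of these, 128 entered in both sections, 15 were higher at P8, 12 at 89 weeks and 9 at both, and 16 were lower at P8, 59 at 89 weeks and 10 at both. These folds use the totals of unlike panels, and with totals over the shared genes alone 12 of the 128 were higher at P8, 17 at 89 weeks and 10 at both, and 16, 11 and 3 were lower. The 9 genes were Vwf, Gata1, Diaph1, Pdgfb, Lyve1 and Tie1, given above, and the urea transporter Slc14a1 (4.35 at P8 and 5.18 at 89 weeks), the integrin subunit Itgb1 (2.04 and 2.65) and the hexokinase Hk1 (2.29 and 2.19). Of these 9, all except Itgb1 were higher at both ages with the shared totals too. Other genes had unlike folds. Cd163, a scavenger receptor of macrophages, was higher at P8 (2.51) and lower at 89 weeks (0.490), and C1qc stood at 2.06 and 0.579, but with the shared totals the 89-week folds were 0.815 and 0.962 and neither was lower. Pdgfa (0.896 and 3.62) and Bmp2 (0.885 and 9.14) were higher at 89 weeks only.

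Macrophage genes at P8 took a larger share of transcripts in a small class of members. The 132 members that held Pf4 without Ppbp or Mmrn1, 6.99% of all members, were compared with the 1669 members that held Ppbp, a comparison made after these values were seen. Of 190 genes that entered, 64 were higher (33.7%) and 64 lower (33.7%). On the C1q macrophage list 10 of 13 genes were higher with a median fold of 4.32, among them Folr2 (45.1) and C1qc (6.79), and Cd163 outside the list was 31.9-fold higher. Most counts of Cd163 (153, against 44 in members with Ppbp) and Folr2 (118 against 24) lay in this class, but those of C1qc (466 against 630) and C1qb (542 against 1152) did not. Several platelet genes ran the other way, with Slamf1 at 0.0179, Vwf at 0.0933, Gng11 at 0.0971 and Gata1, also an erythroid factor, at 0.141. F13a1 (2.47), Igf1 (3.18) and Cd36 (2.29) of the megakaryocyte lists were higher. On the erythroid list 12 of 12 genes were lower (median 0.326), and on the neutrophil list 5 of 11. The stromal list (6 of 7 higher) and the skeletal muscle list (5 of 5) were also higher, led outside marrow types by Dpt (81.5), a connective tissue gene. The 132 cells held a median of 5.5 rule counts, against 11 over all members, so the platelet gene folds are not free of the rule count. Members with 5 to 9 rule counts had 7382 CPM of Vwf and 1158 of Slamf1, against 2771 and 144 CPM in the 132 cells. The data thus went against the label megakaryocyte for these cells. A class of 10 members with Mmrn1 alone had 112462 CPM on the endothelial list and 40730 on the lymphatic endothelial list, against 14577 and 1136 CPM over all members. With members held to at least 2 of the rule genes, an alternative chosen after seeing the data, Lyve1 had a fold of 4.49 and F13a1 of 2.08 at P8.

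At 89 weeks the members without Ppbp differed in another way. Among the 1397 cells with 3 or more counts of Pf4 and Mmrn1, 127 held no Ppbp, in which several platelet genes were still measured, at lower levels. They had 8831 CPM of Itga2b (fold 0.452) and 4489 of Vwf (0.394), against 19540 and 11404 CPM in the 1270 cells with Ppbp, and 1241 of Meis1 against 1294 CPM. Of 737 genes that entered, 105 were higher (14.2%) and 177 lower (24%) in cells without Ppbp. Lower were 11 of 14 receptors (median fold 0.240), 11 of 15 signaling and cytoskeleton genes (0.298) and 6 of 8 granule genes, but 1 of 10 transcription factors. Tubb1 had 0 counts in these cells, which allows up to 88.6 CPM over the class (3 counts), against 3763 CPM with Ppbp, and Slc6a4 and Cd226 also had 0 counts, against 1699 and 1341 CPM. Alox12 (0.0189, from 3 counts) was at this limit, and Thbs1 stood at 0.0204. Higher were 6 of 8 cell cycle genes (median 2.93), including Top2a (3.54) and Mki67 (2.70), the early factor Gata2 (3.48) and the nucleolar gene Npm1 (3.35). The immunoglobulin genes Igkc (5.64) and Ighm (5.28) and 3 of 3 C1q macrophage genes (median 2.41) were also higher, and the part of neighboring cells in these values was not tested. The genes named in this comparison were chosen after their values were seen.

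Ordered by Ppbp, the same 1397 cells formed a graded series. From 0 through 1 to 2, 3 to 9, 10 to 29 and 30 or more Ppbp counts, Thbs1 went from 266 to 382, 1581, 6303 and 19678 CPM, and Alox12 from 88.6 to 139, 724, 2551 and 6943 CPM. Tubb1 followed at 0, 34.7, 552, 2347 and 5465 CPM, and Mki67 was lower in the last classes, at 2835, 3263, 2723, 1474 and 246 CPM. Itga2b (8831, 8885, 11502, 14840 and 24395 CPM) and Vwf (4489 to 14361 CPM) also mounted over the classes, by smaller ratios. The summed levels of 3 other cell types were lower in the last class than in the first as well, at 6115 against 14207 CPM for the erythroid list, 1168 against 4755 for the C1q macrophage list and 2204 against 3603 for the neutrophil list, while the endothelial list went from 1831 to 2493 CPM and the lymphatic endothelial list from 88.6 to 263 CPM. Their part in the Mki67 values was not tested. The median nucleus area was 25.7, 24.7, 25.1, 26.1 and 43.6 µm² over these classes, so that larger nuclei appeared in the last class only, which also held more other transcripts (median 360, against 200 to 217 in the other 4 classes). Ppbp and the other genes were read from the same cells, and the classes differ in depth, so the order is a description.

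**Figure D4:**
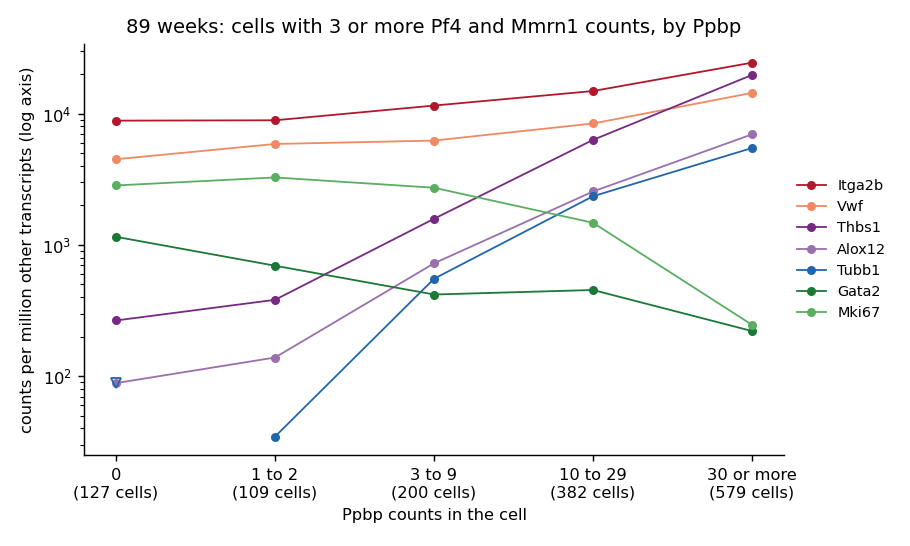
CPM (log axis) of 7 genes at 89 weeks in cells with 3 or more counts of Pf4 and Mmrn1, in classes of Ppbp count (127, 109, 200, 382 and 579 cells). The open triangle marks Tubb1 at 0 counts, drawn at its limit of 88.6 CPM; Thbs1, Alox12 and Tubb1 climb over the classes, and Mki67 and Gata2 are lower in the last class than in the first.

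A like order was seen over the rule counts as a whole. At 89 weeks Itga2b was detected in 0.869% of cells with 0 rule counts, 8.29% with 1 to 2, 27.6% with 3 to 4, 46.0% with 5 to 9, 67.6% with 10 to 19, 91.9% with 20 to 49 and 99.8% with 50 or more. At P8 Vwf was detected in 6.50%, 11.4%, 27.2%, 55.2%, 87.7%, 98.6% and 100% of the same classes. Detection of these genes outside the rule thus climbed in step with the rule count in both sections. The median of other transcripts was also higher in the last class than in the first, at 405 against 57 at 89 weeks and 234 against 102 at P8. Detection over the classes is therefore not free of depth. Members with 3 to 4 counts at 89 weeks, 1555 cells, carried platelet genes least often, with any of Itga2b, Itgb3, Vwf and Tubb1 in 51.6% of them against 2.35% of cells with 0 rule counts. The 2376 members with Ppbp alone held any of these genes in 66.0%, against 78.3% of all members, and Itga2b in 38.3% against 56.7%. They had 20887 CPM on the neutrophil list and 29433 on the erythroid list, against 11755 and 18628 CPM over all members. Their median was 5 rule counts and 96.5 other transcripts, against 8 and 136 over all members. The median nucleus area at 89 weeks was 16.7 µm² with 0 rule counts, 25.4 µm² with 20 to 49 and 50.2 µm² with 50 or more (472 cells), and at P8 it was 21.6, 29.5 and 48.6 µm² (111 cells in the last class). The summed neutrophil level at 89 weeks declined over the same classes from 38235 to 1999 CPM and the erythroid level from 52358 to 5634 CPM. At P8 there was no such steady decline, with the neutrophil level at 38666 CPM in the first class, 51347 with 10 to 19 counts and 20370 in the last.

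Within members, nuclear size went with few gene differences on the megakaryocyte lists. Members in the top quartile of nucleus area were set against those in the bottom quartile (472 and 473 cells at P8, 1408 and 1416 at 89 weeks). At 89 weeks 2794 genes entered, of which 239 were higher (8.55%) and 165 lower (5.91%), and at P8 266 entered, of which 12 were higher (4.51%) and 18 lower (6.77%). On the megakaryocyte lists, 2 of 53 genes at 89 weeks were higher and 0 lower, with Cxcl5 at 4.82 (3.19 to 7.61), and 0 of 15 at P8 were past the fold. Itga2b stood at 1.47, Vwf at 1.27 and Tubb1 at 0.926 at 89 weeks, and Slamf1 at 1.56 and Vwf at 1.05 at P8. The list medians at 89 weeks were 1.37 for receptors, 1.33 for granule genes, 1.43 for transcription factors and 1.02 for signaling and cytoskeleton genes, against 0.811, 0.918, 1.05 and 0.626 in other cells split in the same way. Few genes thus passed the fold while most list medians were modestly above 1. Neutrophil genes (4 of 7 lower, median 0.402) and C1q macrophage genes (4 of 10 lower, median 0.537) took a smaller share in the large nuclei at 89 weeks, as they did in other cells (medians 0.499 and 0.745).

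Members lay close together. The median distance from a member to the nearest other member was 6.79 µm at P8 and 6.92 µm at 89 weeks, and 93.5% and 95.1% of members had another within 20 µm. Other cells had a member within 20 µm in 20.3% of cases at P8 and 36.1% at 89 weeks. Linked at 15 µm or less, members fell into 334 groups at P8 and 1215 at 89 weeks, of which 176 and 853 held at least a pair. These larger groups held a median of 8 and 5 members and spanned a median of 23.6 and 18.7 µm. The outline with the most rule counts in its group had a median nucleus of 38.5 µm² at P8, against 25.3 µm² in the rest of the group, and of 33.2 against 20.9 µm² at 89 weeks. It held the largest nucleus of its group in 50% of groups at P8 (42.4 to 57.6) and 53.3% at 89 weeks (49.9 to 56.7). The mean of 1 over the group size was 19.4% and 24.8%. These outlines were picked by raw rule counts. They also held more transcripts of other genes than the rest of the group, with medians of 194.5 against 131 at P8 and 259 against 120 at 89 weeks. The shares are therefore not free of depth and are a description.

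Distance from a large nucleus gave the same picture without the rule at 89 weeks. Around the 110 nuclei of at least 80 µm² in that section, picked by area alone, the outline with the large nucleus held a mean of 90.1 rule counts. Outlines centred within 10 µm held 6.24, those at 10 to 15 µm 3.49, at 15 to 20 µm 1.08, at 20 to 30 µm 0.765 and at 30 to 50 µm 0.656. Itga2b followed the same order, at 13.6, 0.743, 0.380, 0.115, 0.111 and 0.0872 counts per outline. These are raw counts, scaled neither by depth nor by area. The 103 members among these nuclei held a median of 560 transcripts of other genes, against 58 in other cells of the section. The height at the centre is therefore not free of depth. Within 10 µm of a large nucleus 36.1% of outlines were members, and these outlines had a median nucleus of 17.3 µm². At P8, where the 30 members with nuclei of at least 80 µm² were taken as centres, the choice of centres used the rule counts, so their level is a description, and the 102 other nuclei of that size, with a median of 0 rule counts, were left out. The means were 101 counts in the centre, 10.5 within 10 µm, 11.4 at 10 to 15 µm and 1.18 at 30 to 50 µm. At 89 weeks the counts thus dropped to near their far level by 15 to 30 µm. Whether a small member beside a large nucleus was a second megakaryocyte or another cell whose outline covered megakaryocyte cytoplasm was not tested. The number of outlines can therefore not be taken as the number of megakaryocytes.

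**Figure D5:**
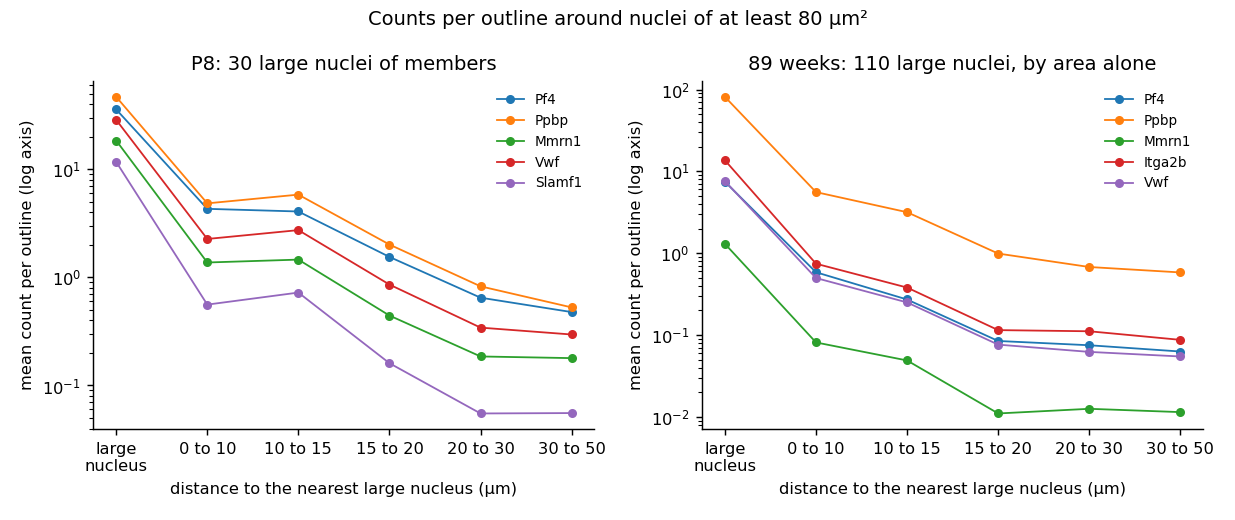
Mean count per outline (log axis) of Pf4, Ppbp, Mmrn1 and further platelet genes in outlines with a nucleus of at least 80 µm² and in outlines at set distances (µm) from the nearest of them. The P8 panel uses 30 members, chosen in part by the rule counts shown, and the 89-week panel all 110 such nuclei, and every gene is highest at the large nucleus. The counts are raw and not scaled by depth.

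Single transcripts, listed for the P8 section only, placed the RNAs within the outline. In members, 44.6% of Pf4 (43.8 to 45.5), 44.0% of Ppbp (43.2 to 44.8) and 39.1% of Mmrn1 (37.7 to 40.4) lay over the nucleus, against 50.3% over all genes. In other cells the shares were 42.3% for Pf4, which differed little, 57.0% for Ppbp and 52.4% for Mmrn1. Vwf lay over the nucleus in 40.0% of cases in members and 60.2% in other cells, and Gata1 in 45.2% and 61.6%. Slamf1 (47.2% and 65.3%) and Diaph1 (38.7% and 58.8%) were also less often over the nucleus in members. Timp3 (43.1% and 33.8%) and Myl9 (37.4% and 33.2%) went the other way, as did Vegfa, Pdgfa and Pdgfb by smaller gaps. The rule genes were thus somewhat more often outside the nucleus than RNA at large in members. Genes of the lists differed from other cells in both directions, with the widest gaps in genes less often over the nucleus in members. Outside every outline lay 4.80% of Pf4, 7.35% of Ppbp and 2.12% of Mmrn1, against 10.6% over all genes. Of these stray transcripts, 8.15% of Pf4 (84 of 1031), 11.6% of Ppbp (174 of 1504) and 6.21% of Mmrn1 (10 of 161) lay within 30 µm of a member. Their median distance to the nearest nucleus of any cell was 64.2, 67.4 and 74.5 µm, so they mostly lay away from all cells. The share near members was not read for other genes.

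The cells around members were described last, as non-members within 30 µm of a member over all non-members farther away. At P8 the 17142 near cells had 1.66 times the erythroid share of transcripts of the 33564 farther cells, with 1.49 for the C1q macrophage list and 1.48 for the neutrophil list, and lower shares of stromal and bone (0.377) and cartilage (0.0222) genes. With the farther cells held to within 100 µm, chosen after seeing the data, these ratios were 1.24, 1.21, 1.13, 0.528 and 0.222. Members at P8 thus lay among blood-forming cells and away from the skeleton, and much of the erythroid difference was between marrow and the rest of the section. At 89 weeks, where the section held mostly marrow with some bone-forming cell signal, 82591 near and 55573 farther cells gave ratios of 1.07 for erythroid, 0.956 for stromal and bone, 0.965 for neutrophil, 0.931 for C1q macrophage and 1.03 for endothelial genes (0.999 to 1.06). Around members of the aged marrow the lists thus differed little between near and farther cells. Gene by gene, near cells were compared with non-members at 30 to 100 µm. At P8, 469 genes entered, of which 0 were higher (0%) and 54 lower (11.5%), and at 89 weeks 4949 entered, of which 52 were higher (1.05%) and 48 lower (0.97%). The platelet genes Tubb1 (3.94, 3.21 to 4.86), Rab27b (3.64) and Alox12 (3.09) were higher in cells near members at 89 weeks, and Itga2b stood at 2.15. Of the 52 genes higher near members, 11 were also higher in members. Over all genes entered in the member comparison, 302 of 3338 (9.05%) were higher, but that set is unlike the 4949 genes entered here. Near non-members also held rule counts below the minimum more often, with Ppbp in 5.74% of them against 1.60% of farther cells. At P8 Slamf1 (1.86) and Vwf (1.58) lay above 1 and Cavin2 (0.869), Myl9 (0.716) and Timp3 (0.709) below it. At 89 weeks, the bone-forming cell genes Bglap2 (0.308, 0.277 to 0.342), Dmp1 (0.276), Sost (0.199, from 18 counts near members) and Mepe (0.180, from 12 counts) were lower near members. These genes were named after their values were seen.

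Pf4 and Ppbp lie side by side in a chemokine cluster on chromosome 5, in the RefSeq order Cxcl5, Ppbp, Pf4, Cxcl3, Cxcl15, Cxcl1, Cxcl2. Of the neighbors, Cxcl5 shared the member pattern at 89 weeks with a fold of 37.2, as given above. Cxcl3, on the other side of Pf4, had a fold of 0.993 (0.416 to 2.04) from 8 counts in members, and Cxcl1 (0.405) and Cxcl2 (0.563) rested on 2 counts each. At P8, where Cxcl5 is not on the panel, Cxcl1 stood at 1.08 (0.487 to 2.10) and Cxcl2 at 1.24 (0.665 to 2.12). Of the cluster genes measured at 89 weeks, Cxcl5 was thus the 1 that shared the pattern, while the low counts of Cxcl1, Cxcl2 and Cxcl3 leave their folds uncertain.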

How the data were processed

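Xenium sections of P8 femur and 89-week marrow were analysed, each section by itself. Per the labels and the study's methods, formalin-fixed tissue was embedded in paraffin and cut at 5 µm. The authors deposited raw counts of decoded transcripts per gene and outlined cell, made with Xenium Onboard Analysis 1.7.1.0 (P8) and 3.1.0.4 (89 weeks) as the files state, together with the positions, cell areas and nucleus areas of the cells. Counts are not normalized, and the depth is 6446659 and 13053261 transcripts. For P8 the deposited table of single transcripts gives each one a quality score, and those with a score of 20 or more, recounted per cell, differed from the deposited counts by 0. The genome build of the probes was not given in the sources used here.

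Members were taken by the count rule, and members, gene lists and tests were chosen with earlier results of these data known. CPM is a gene's counts per 1000000 gene transcripts without the 3 rule genes. Each fold is a ratio of CPM with an exact conditional binomial interval, and shares have exact (Clopper-Pearson) intervals, all 95%. Genes entered at an expected count of 10 in members, taken from the rate over all cells so that it favors no direction. A fold of at least 2 or at most 0.5 was called. With 1 section per age no test across samples was possible. Named genes were those of the megakaryocyte lists that entered. Also named, per section, were the 10 largest and 5 smallest folds among genes with at least 50 counts. Further genes were named outside this naming rule, and only some are marked in the text as chosen after seeing their values. A gene that met this rule is not reported here and was left out of the lists. Lists of 16 other kinds of cells or states were read: those not named in the text were monocyte, smooth muscle and pericyte, T and NK, and stem and progenitor, of which 0 genes were higher in members in either section. Alternatives changed the count minimum, the rule genes, the cells entered, the scaling, the filter, the panel, the comparison cells, the radius, the quality score and the thinned depth. The fold script was tested on simulated data. Python 3.11.15, NumPy 2.4.6, pandas 2.3.3, SciPy 1.17.1 and matplotlib 3.10.9 were used. The other 4 sections were not used here beyond counting their cells.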

Additional observations from a re-analysis of the deposited data

How the results depend on the processing

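No paired analysis was possible because each age has 1 section and the labels give no replicate numbers, and no section could be left out in turn. In 4 cases an area ratio above 1 came out below 1. Against other cells rich in transcripts the median nucleus ratio was 0.99 at P8 and 0.998 at 89 weeks, and the median cell area ratio was 0.916 at P8, where the mean cell area gave 0.747. The nucleus ratios of 0.99 and 0.998 include 1 within the binomial interval of the members' median.

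At P8 the share of members was 5.64% at 3 or more counts, 2.04% at 10 or more, 2.41% without Pf4, 2.49% without Ppbp, 3.38% without Mmrn1, 3.81% in cells with at least 20 transcripts and 5 genes and 1.75% with transcripts over the nucleus only. At 89 weeks it was 2.84% at 5 or more counts, 1.69% at 10 or more, 3.60% without Pf4, 0.971% without Ppbp and 4.66% in cells with at least 20 transcripts and 5 genes. The nucleus ratio at P8 was 1.16 at 3 counts, 1.27 at 10 and 1.25 by the mean, and at 89 weeks 1.36 at 5 counts, 1.48 at 10, 1.21 in cells with at least 20 transcripts and 1.46 by the mean. The cell area ratio at P8 was 1.17 at 10 counts and 1.15 in cells with at least 20 transcripts, and at 89 weeks 1.87 at 5 counts, 2.23 at 10, 1.23 against cells rich in transcripts, 1.57 in cells with at least 20 transcripts and 1.88 by the mean.

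The number of genes past the fold depended on the scaling. Higher genes at P8 numbered 53 per cell, 110 per area and 12 on the shared panel, and lower genes 46 at 3 counts, 43 per area, 36 on the shared panel and 35 against cells within 50 µm, a comparison chosen after seeing the data. Higher genes at 89 weeks numbered 1215 per cell and 17 on the shared panel, and lower genes 968 at 10 counts, 17 per cell, 314 per area, 1181 without the filter, 10 on the shared panel and 789 with at least 2 rule genes. Of the megakaryocyte lists, 5 genes on the shared panel were higher in each section, since fewer genes were tested. Of the 88 named gene folds, 0 changed direction past the fold, and 14 crossed the 2-fold or 0.5-fold line under some alternative, among them Nfe2 (lowest 1.94), Syk (1.97) and Tal1 (1.92) at 89 weeks and Gata1 (1.93) at P8.

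Held-out detection at P8 with 3 counts was 86.9% for Pf4, 69.1% for Ppbp and 48.8% for Mmrn1, and at 89 weeks with 5 counts 59.4%, 94.5% and 21.9%. The distance to the nearest member was 7.23 µm at 10 counts and 43.8 µm with members merged at P8, and 7.36 µm at 5 counts, 8.07 µm at 10 and 39.1 µm merged at 89 weeks. The erythroid ratio near members at P8 was 1.51 at 20 µm, 2.21 at 50 µm, 1.5 at 3 counts, 1.75 at 10 and 1.24 within 100 µm, and the stromal ratio 0.379, 0.349, 0.529, 0.244 and 0.528. At 89 weeks the erythroid ratio was 1.01 at 20 µm, 1.23 at 50 µm, 1.04 at 5 counts and 1.01 at 10, and the stromal ratio 0.991 at 20 µm, 0.883 at 50 µm and 0.941 at 10 counts. The ratio of genes detected was 1.07 and 1.13 at P8 and 1.04 and 1.06 at 89 weeks, thinned to 20 and to 100. Without a quality minimum, 42.3% of Pf4 and 42.9% of Ppbp lay over the nucleus and 4.23%, 6.03% and 2.55% of Pf4, Ppbp and Mmrn1 outside all outlines. At a score of 30, 41.7% of Mmrn1 lay over the nucleus and 7.83% of Ppbp and 2.63% of Mmrn1 outside. The causes of these shifts were not tested. Low counts limit single genes, and the P8 panel holds few platelet genes.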

Other observations

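Members at P8 that had no other member within 15 µm differed in their gene levels from those in groups. The 158 single members had Vwf in 25.9% of cells and 80521 CPM on the C1q macrophage list, against 80.2% and 34237 CPM in the 1554 members of groups that were not the highest of their group. Their median cell area was 147 µm², against 50.8 µm². The single members also had 117400 CPM on the erythroid list and 20736 on the neutrophil list, against 302534 and 48879 CPM. On the lymphatic endothelial list they had 3015 against 603 CPM. At 89 weeks the 362 single members had Itga2b in 50.3% of cells, against 51.4% in the 4431 members of groups that were not the highest of their group. Vwf was found in 38.1% against 41.1% and Itgb3 in 39.8% against 47.7%, and the C1q macrophage list had 4059 against 3521 CPM. The single members at P8 were thus poor in Vwf and rich in C1q macrophage genes, a difference that was much smaller for the genes read at 89 weeks.

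Cell cycle genes went with nuclear size in other cells more than in members at 89 weeks. Their median fold between the top and bottom quartile of nucleus area was 1.93 in other cells and 1.19 in members, and at P8 it was 2.07 and 1.72. The erythroid list gave 2.02 in other cells and 1.05 in members at 89 weeks.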
